A study of Mus musculus with 10 samples.

Results

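The nuclear genes for subunits of the mitochondrial respiratory chain were followed through a treated mouse model of ovarian cancer. They were taken by symbol, as every gene whose name starts with Nduf plus a letter a, b, c, s or v and a digit, is Sdha, Sdhb, Sdhc or Sdhd, or starts with Uqcr, with Cox and a digit from 4 to 8, or with Atp5, leaving out names that contain -ps. This gave 82 of the 32830 genes measured. Complex I had 37 of them, complex II 4, complex III 8, complex IV 16 and complex V 17. Of these, 6 are isoforms known for particular tissues or states, namely Cox6a2, Cox7a1 and Cox8b of muscle, Cox4i2, Cox6b2 and Ndufa4l2, and the other 76 are called common subunits here. Atp5s and Atp5sl match by name and are counted with complex V, although their products are not constituents of the purified enzyme, and Ndufa4 is counted by its symbol with complex I, although its product is now assigned to complex IV.

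Polyadenylated RNA of 10 tumours was sequenced, 1 library per tumour sample. The combination of a CDK4/6 inhibitor (CDK4/6i, which blocks the kinases that start the cell cycle) with a PD1 antibody (which blocks an inhibitory receptor of T cells) was given in 3 samples, CDK4/6i alone in 3, PD1 antibody alone in 2, and phosphate-buffered saline (PBS) as the vehicle in 2. The treatment labels of combination replicates 2 and 3 name a PD2 and a PD3 antibody in place of PD1; their titles put them in 1 series with replicate 1, and they are taken here as the combination with PD1 antibody. The study's question is if the antibody works better with the inhibitor because tertiary lymphoid structures form, which are lymph node-like aggregates in tumours. All mice were labelled wild type; the labels give no strain, age, tumour line, dose or treatment time, and do not say whether samples came from separate animals, so the p-values measure only the spread between these samples.

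The respiratory chain lies in the inner mitochondrial membrane. Complex I (NADH dehydrogenase) and complex II (succinate dehydrogenase, also an enzyme of the citric acid cycle) pass electrons to ubiquinone, complex III passes them on to cytochrome c, and complex IV (cytochrome c oxidase) hands them to oxygen; complex V, the ATP synthase, uses the proton gradient built on the way. All complexes except complex II also hold subunits encoded in mitochondrial DNA, and striated muscle and brown fat carry their own isoforms of some complex IV subunits.

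The libraries held 25132208 to 36260856 reads in genes, and differed widely in transcripts of skeletal muscle and exocrine pancreas. A list of 12 skeletal muscle genes took 10.3%, 0.153% and 0.585% of the reads in the 3 combination libraries, 10.1%, 9.02% and 0.00209% in the CDK4/6i libraries, 0.00246% and 0.569% in the PD1 antibody libraries, and 1.57% and 0.546% in the PBS libraries. A list of 9 exocrine pancreas genes took 7.07% and 2.90% in the PD1 antibody libraries, against 0.00120% and 0.00139% in the PBS libraries. It took between 0.00105% and 1.09% in the other 6. The PBS libraries also differed from each other in other tissues. A list of 9 liver genes took 0.000661% or 0.520% of their reads, and 6 white fat genes 0.00821% or 0.359%. Liver was high in PBS replicate 2 (Alb 1395 RPKM) and white fat in PBS replicate 1 (Cfd 867 RPKM). Epithelial and mesothelial markers were present throughout, with 33.1 to 53.3 RPKM of Wt1 and 118 to 179 RPKM of Krt8. Not all of them were even across libraries. Epcam had 27.8 RPKM in combination replicate 1 and at most 6.21 RPKM in any other library, and Upk3b ran from 28.5 to 78.1 RPKM. RPKM divides a gene's reads by its length and by the library's total, so a tissue that takes many reads lowers every other gene's value. In bulk tissue, fewer cells of a type and less RNA per cell cannot be told apart.

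The 76 common subunits took between 0.472% and 0.919% of a library's reads. In the combination libraries they took 0.848%, 0.617% and 0.661%, and in the CDK4/6i libraries 0.919%, 0.841% and 0.603%. In the PD1 antibody libraries they took 0.472% and 0.564%, and in the PBS libraries 0.779% and 0.674%. Both PD1 antibody libraries lay below all other 8, and the CDK4/6i libraries spanned from the highest value of all to the lowest outside the PD1 antibody group. The exact binomial 95% interval of the lowest share was 0.470% to 0.475%, so counting error was small beside these differences; such intervals cover counting error only.

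In all 10 libraries complexes I and V took the largest shares of reads and complex II the smallest. Complex I took 0.2404% ± 0.0335 of reads in combination tumours (SD, n = 3), 0.268% ± 0.0514 in CDK4/6i tumours (n = 3), 0.172% ± 0.0216 in PD1 antibody tumours (n = 2) and 0.243% ± 0.0252 in PBS tumours (n = 2). Complex V took 0.2999%, 0.196% and 0.214% in the combination libraries, 0.315%, 0.286% and 0.197% with CDK4/6i, 0.158% and 0.191% with PD1 antibody, and 0.263% and 0.224% with PBS. The 4 genes of complex II took 0.0437%, 0.03505% and 0.0384% in the combination libraries, 0.0358%, 0.0327% and 0.0319% with CDK4/6i, 0.0263% and 0.0309% with PD1 antibody, and 0.0384% and 0.0398% with PBS. Most complex II reads were those of Sdha, the only one of the 4 that was lower in CDK4/6i replicate 1 than in replicate 3, by a log2 difference of -0.24, while Sdhb, Sdhc and Sdhd had 1.02, 0.92 and 0.40. The median log2 level of the 4 genes was 4.64, 4.45 and 3.99 with CDK4/6i, against 4.48 and 4.17 with PBS, so by this measure the CDK4/6i libraries lay on both sides of the PBS libraries in complex II, as their read shares did in complexes I, III, IV and V.

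**Figure D1:**
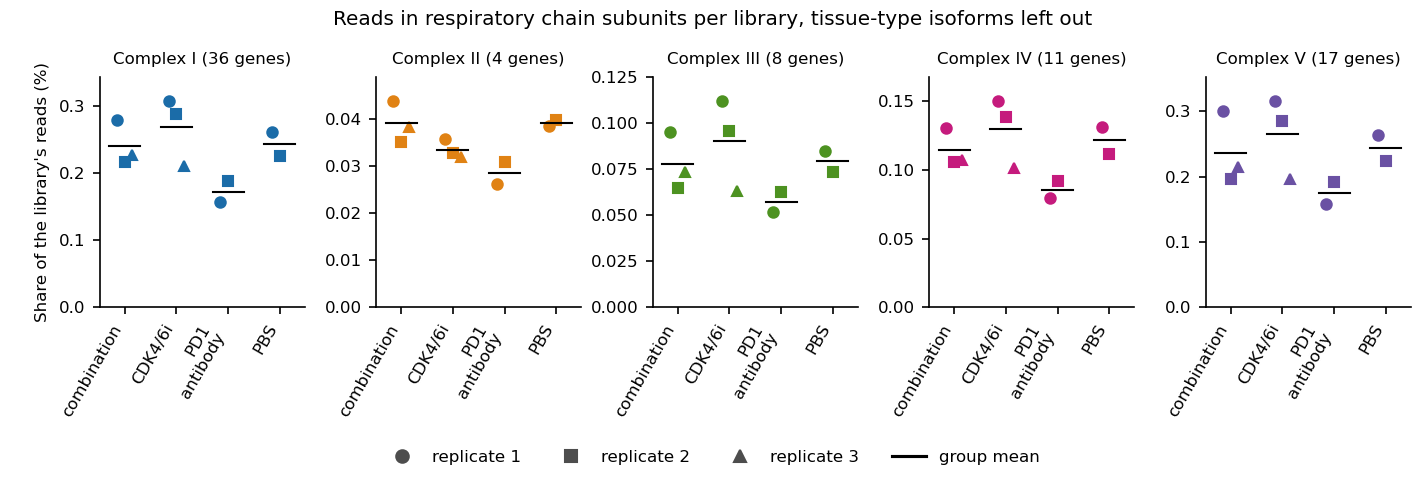
Share of each library's reads (%, vertical axes, 1 panel per complex) in the common subunits of complexes I to V; points are libraries, placed by treatment with a marker shape per replicate, and lines are group means. The PD1 antibody libraries are the 2 lowest in every panel (complex V: 0.158% and 0.191%).

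Levels between genes were compared per length, as mean RPKM over the 10 libraries. The most abundant member of complex I was Ndufb9 (181 RPKM), an accessory subunit of the membrane arm. The highest in the other complexes were Sdha, the flavoprotein of complex II (60.8 RPKM), Uqcrb, a small subunit of complex III (277 RPKM), Cox5b, a zinc-binding subunit of complex IV (230.2 RPKM), and Atp5h, the d subunit of the ATP synthase stalk (235 RPKM). The gene lengths in the table cover all exons of a gene; with the length of the principal transcript, Cox6c stood at the head of complex IV in place of Cox5b, at 444 RPKM, and the leading gene of the other 4 complexes was the same. The lowest means were those of Atp5s (1.42 RPKM), Cox6b2 (1.83 RPKM) and Cox4i2 (2.28 RPKM).

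Across libraries, the tissue-type isoforms except Cox6b2 varied more than any common subunit. Among the 76, the ratio of the highest to the lowest library ran between 1.43 for Cox7a2l, a supercomplex assembly factor, and 4.64 for Ndufa11, a membrane-arm subunit of complex I. The same ratio was 970 for Cox6a2, 8.36 for Cox7a1, 7.998 for Cox4i2, 5.96 for Ndufa4l2 and 4.18 for Cox6b2, and could not be formed for Cox8b, which had 0 reads in 2 libraries.

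Muscle cytochrome oxidase carries Cox6a2, Cox7a1 and Cox8b in place of Cox6a1, Cox7a2 and Cox8a. The 250 bases before the start of 4 of these genes are shown because the levels of the muscle forms separated from those of their partners. They come from RefSeq (build GRCm38.p6), which holds a start region for 65 of the 82 genes. Cox6a2 has no start region there. The Cox7a2 region held none of the motifs searched and is not shown. The Cox8b region is chr7:140900447-140900696 on the minus strand, and capitals mark the E-box CAGCTG, a motif bound by myogenic regulators, 19 to 14 bases before the start.
Cox8b: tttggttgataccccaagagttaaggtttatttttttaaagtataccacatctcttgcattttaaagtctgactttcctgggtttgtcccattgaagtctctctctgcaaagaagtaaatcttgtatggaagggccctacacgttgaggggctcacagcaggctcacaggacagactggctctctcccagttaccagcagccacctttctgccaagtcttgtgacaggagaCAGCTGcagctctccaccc
The Cox8a region is chr19:7217617-7217866 on the minus strand and the Cox7a1 region chr7:30183921-30184170 on the plus strand, and neither held any of the motifs searched.
Cox8a: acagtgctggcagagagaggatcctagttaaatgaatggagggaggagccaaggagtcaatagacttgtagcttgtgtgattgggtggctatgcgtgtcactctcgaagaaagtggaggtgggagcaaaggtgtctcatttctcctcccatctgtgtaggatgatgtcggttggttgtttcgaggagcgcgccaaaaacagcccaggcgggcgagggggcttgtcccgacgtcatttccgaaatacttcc
Cox7a1: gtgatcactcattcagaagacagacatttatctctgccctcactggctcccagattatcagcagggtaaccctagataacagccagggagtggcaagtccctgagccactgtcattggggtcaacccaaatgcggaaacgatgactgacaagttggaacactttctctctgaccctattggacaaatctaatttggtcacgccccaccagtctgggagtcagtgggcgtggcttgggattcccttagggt
The Cox6a1 region is chr5:115348959-115349208 on the minus strand. Capitals mark 2 cores of the NRF1 site (GCGCA, any base, then GCGC), which begin 162 and 117 bases before the start, and an ETS site (CCGGAAG, here on the opposite strand) that begins 16 bases before it.
Cox6a1: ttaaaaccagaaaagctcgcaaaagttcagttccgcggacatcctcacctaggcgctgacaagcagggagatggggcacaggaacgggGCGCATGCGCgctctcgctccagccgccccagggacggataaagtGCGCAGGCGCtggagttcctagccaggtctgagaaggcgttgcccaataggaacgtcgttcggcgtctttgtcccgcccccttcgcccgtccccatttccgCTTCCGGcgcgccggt
NRF1 and the ETS factor GABP are regulators of mitochondrial genes. On both strands, the NRF1 core was found in 20% of the 65 genes and in 4.23% of all 27025 genes with a start region, and the ETS site in 18.5%, against 7.83% of all. CAGCTG was found in 9.23% of the 65 genes and in 14.7% of all. The estrogen-related receptor element TNAAGGTCA was in 3.08% of the 65 genes and 1.3% of all, and the MEF2 site in 0, against 1.99% of all. The median GC content was 56% in the members' regions, against 52.4% in all regions, and the shares were not adjusted for it. A match describes letters only.

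Cox6a2, the muscle form of a regulatory subunit of complex IV (chr7:128205435-128206387, minus strand), had 272, 15.4 and 59.3 RPKM in the combination libraries and 397, 296 and 0.409 RPKM in the CDK4/6i libraries. It had 0.560 and 15.9 RPKM in the PD1 antibody libraries, and 63.5 and 54.7 RPKM in the PBS libraries. The 3 highest libraries were those with over 5% of muscle reads (combination replicate 1 and CDK4/6i replicates 1 and 2), and the 2 lowest were those with 0.00209% and 0.00246% (CDK4/6i replicate 3 and PD1 antibody replicate 1), so CDK4/6i libraries stood at both ends. The log2 fold change of Cox6a2 for PD1 antibody versus PBS was -3.83 with an SE of 2.85, and for combination versus PD1 antibody 3.94 with an SE of 2.60; no comparison of it passed the test. Cox6a1 (chr5:115345642-115348981, minus strand) ranged only between 22.1 and 43.5 RPKM over the 10 libraries. Cox6a2 therefore made up 89.3%, 36.8% and 68.2% of the RPKM of the pair in combination tumours, 90.3%, 88.4% and 1.31% in CDK4/6i tumours, 2.48% and 37.6% in PD1 antibody tumours, and 59.4% and 68.1% in PBS tumours. Its exons overlap those of Itgad on the opposite strand.

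Cox8b (chr7:140898945-140900446, minus strand) had 43.9, 3.64 and 12.4 RPKM in the combination libraries, 44.1, 35.8 and 0 RPKM with CDK4/6i, 0 and 3.73 RPKM with PD1 antibody, and 11.7 and 9.93 RPKM with PBS. The libraries with 0 were CDK4/6i replicate 3 and PD1 antibody replicate 1, where a count of 0 allows up to 0.290 and 0.264 RPKM. Cox8b and Cox6a2 were thus high and low in the same libraries. Cox8b was at most 44.0% of its pair with Cox8a, in combination replicate 1.

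Cox7a1 (chr7:30184144-30186078, plus strand) varied less. It had 63.2, 30.1 and 46.9 RPKM in the combination libraries, 75.0, 61.5 and 8.96 RPKM with CDK4/6i, 22.2 and 21.4 RPKM with PD1 antibody, and 37.6 and 56.2 RPKM with PBS. Its 3 highest libraries were the same muscle-rich ones as for Cox6a2 and Cox8b, and its lowest was CDK4/6i replicate 3. The 2 libraries with almost no muscle reads still held 138 (CDK4/6i replicate 3) and 374 (PD1 antibody replicate 1) reads of it, against 8 and 12 reads of Cox6a2. Cox7a1 was 44.5% of its pair with Cox7a2 in CDK4/6i replicate 3 and 71.2% to 87.3% in the other 9 libraries. Brown fat also makes Cox7a1. Its 4 marker genes summed to 0.491 to 4.35 RPKM per library: Ucp1 was at 0 in 8 libraries and Elovl3 in 6, while Cidea (0.382 to 4.07 RPKM) and Dio2 were detected in all 10. The part of brown fat in the Cox7a1 values was not tested.

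Of the other tissue-type isoforms, Ndufa4l2, a hypoxia-induced relative of Ndufa4, had 16.3, 5.36 and 9.54 RPKM in the combination libraries, 31.9, 30.1 and 5.94 RPKM with CDK4/6i, 7.67 and 13.8 RPKM with PD1 antibody, and 16.9 and 13.0 RPKM with PBS. Cox4i2, the form of subunit 4 known from lung and vessel walls, had 3.17, 0.755 and 1.15 RPKM in the combination libraries, 3.10, 4.94 and 0.617 RPKM with CDK4/6i, 1.25 and 1.33 RPKM with PD1 antibody, and 4.75 and 1.72 RPKM with PBS. Both were low in CDK4/6i replicate 3 and high in CDK4/6i replicates 1 and 2, so the CDK4/6i group lay on both sides of the PBS values in each gene. The exons of Ndufa4l2 overlap those of Shmt2.

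**Figure D2:**
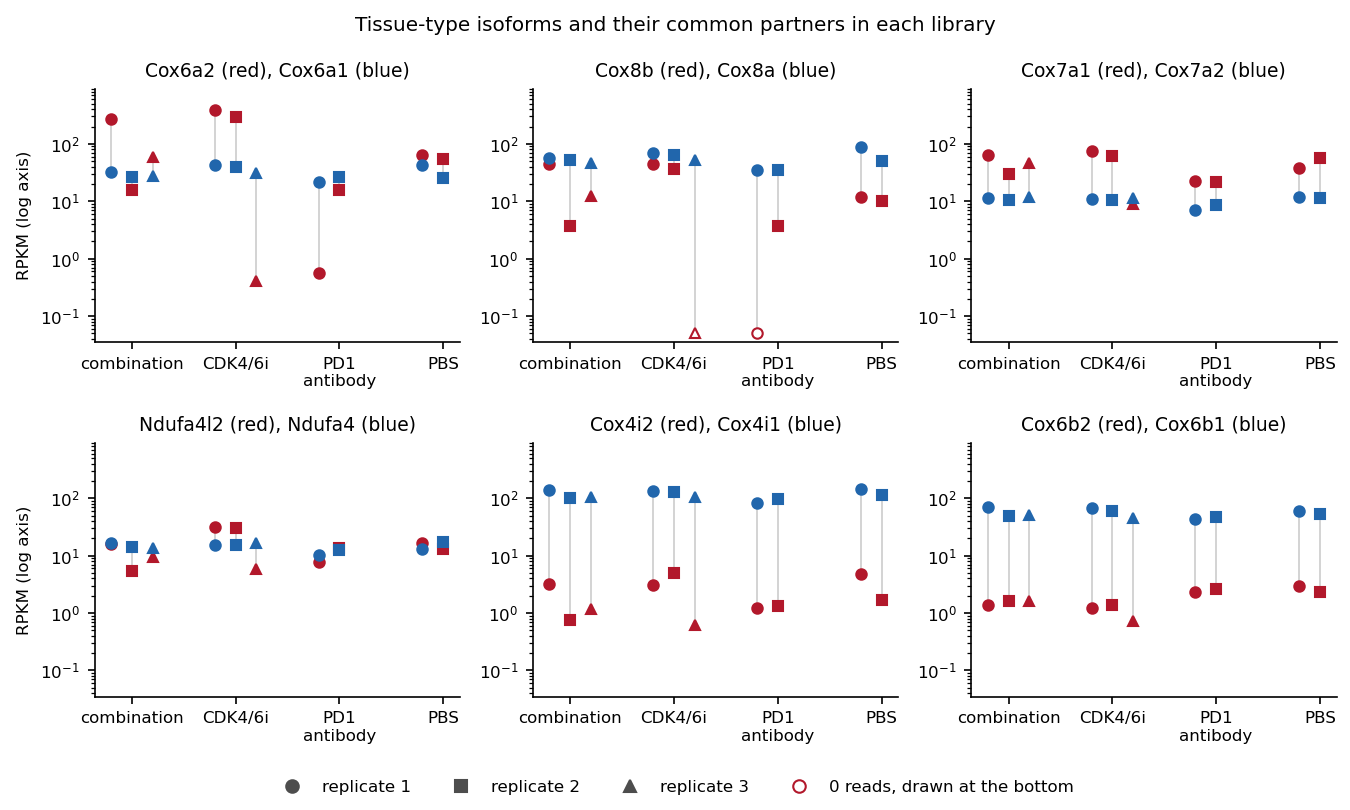
RPKM (log axis) of tissue-type isoforms (red) and their common partners (blue) in each of the 10 libraries, 1 panel per pair, grouped by treatment with a marker shape per replicate; open markers at the bottom are libraries with 0 reads. Cox6a2 runs between 0.409 and 397 RPKM while Cox6a1 stays between 22.1 and 43.5 RPKM.

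Differences between groups were tested with limma on log2(RPKM + 0.5) over 19368 genes that reached 0.5 RPKM in at least 2 libraries, which all 82 members did, with Benjamini-Hochberg adjustment over all genes. Folds on this scale are slightly understated for genes of low level. No member passed an adjusted p of 0.05 in any of the comparisons, and neither did any of the 19368 genes (0% called in each). All group differences below are therefore values with errors that did not pass the test; counts of members whose groups do not overlap are given beside the share of all genes tested. The comparisons share libraries, those against PBS the PBS ones among them, and are not independent of each other.

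The combination was set against PBS first. Here the members stood close to their PBS levels: 28 had a log2 fold change above 0 (42.1% of all genes) and 54 below (57.9%), with a median of -0.04, against -0.05 over all genes. In 2 members every combination library was above both PBS libraries (4.45% of all genes), in 1 every one was below (11.5% of all genes), and the same 1 had an unadjusted p under 0.05 (2.32% of all genes were lower at that p, and 1.22% higher). This was Cox6b2, a testis form of complex IV subunit 6b (chr7:4751792-4753094, minus strand), with 1.40, 1.61 and 1.64 RPKM in combination tumours, against 3.02 and 2.29 RPKM in PBS tumours. Its log2 fold change was -0.61, and it rested on 46 to 88 reads a library. Cox5a, a complex IV subunit on its matrix side, had 6.18, 5.21 and 6.16 RPKM in combination tumours, against 3.48 and 4.87 RPKM in PBS tumours (log2 fold change 0.45); the groups did not overlap. Cox8a, the common partner of Cox8b (chr19:7215158-7217616, minus strand), had 56.0, 52.4 and 45.7 RPKM in combination tumours, against 89.0 and 50.3 RPKM in PBS tumours (log2 fold change -0.38), and its groups overlapped. The balance of signs over the members turned with single libraries: 66 were below 0 without combination replicate 1, but 27 without combination replicate 2, 38 without combination replicate 3 and 30 without PBS replicate 1, and 28 with median-ratio scaling.

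CDK4/6i alone against PBS gave 54 members above 0 (23.6% of all genes) and 28 below (76.3%), with a median of 0.07, while the median over all genes was -0.20. An unadjusted p under 0.05 was reached by 2 lower members (5.03% of all genes) and 0 higher ones (0.315%). Groups did not overlap for 2 members that were higher (1.71% of all genes), Ndufs4 and Ndufv3, and for 6 that were lower (17.3%), Sdha, Ndufs1, Cox6b2, Cox7a2, Atp5s and Atp5sl. This balance depended on the scaling: with median-ratio scaling 8 members were higher without overlap (6.87% of all genes) and 2 lower (7%), and with quantile normalization 2 were higher (7.86%) and 2 lower (6.27%). The members below 0 numbered 9 with median-ratio scaling and 14 with quantile normalization. Sdha (chr13:74322254-74350280, minus strand) was among the lower, with 49.6, 47.0 and 58.9 RPKM in CDK4/6i tumours, against 65.9 and 73.3 RPKM in PBS tumours. Its log2 fold change was -0.43 ± 0.17 (SE), with an adjusted p of 0.844 by limma. All 3 CDK4/6i values lay below both PBS values. Ndufs1, the largest iron-sulfur subunit of complex I, had 6.39, 6.05 and 7.13 RPKM, against 7.36 and 9.12 RPKM, also without overlap. Cox6b2 had 1.20, 1.40 and 0.721 RPKM in CDK4/6i tumours, against 3.02 and 2.29 RPKM in PBS tumours (log2 fold change -0.99 ± 0.23 SE, unadjusted p 0.00238, adjusted p 0.842 by limma). Cox6b2 had the lowest p of the 82 in this comparison. Of 16 hypoxia and glycolysis genes, 14 were above 0 (23.6% of all genes), with a median of 0.45. Of 15 listed regulators of mitochondrial biogenesis, 13 were tested, and all 13 were below 0 (76.3% of all genes). Their median of -0.23 was near the -0.20 over all genes.

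The direction of the CDK4/6i comparison depended on which CDK4/6i tumours were read. Between replicate 1 and replicate 3, 65 of the 76 common subunits were higher in replicate 1, with a median difference of 0.54 on the log2 scale, while the median over all genes was -0.27. Between replicate 2 and replicate 3 the median was 0.47. The difference was largest in complex V (median 0.91, 15 of 17 above 0) and complex III (0.75, 8 of 8). Within complex V the 7 stalk and membrane subunits had a median of 1.16, while the 5 subunits of the catalytic F1 head had 0.31 and the 3 genes of the rotating c ring 0.06. Atp5g2, a c ring gene, ran the other way, with 21.01 RPKM in replicate 3, against 12.1 and 10.8 RPKM in replicates 1 and 2. Ndufa11 had 14.3, 14.2 and 4.17 RPKM in the 3 CDK4/6i libraries, the widest spread of the common subunits.

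**Figure D3:**
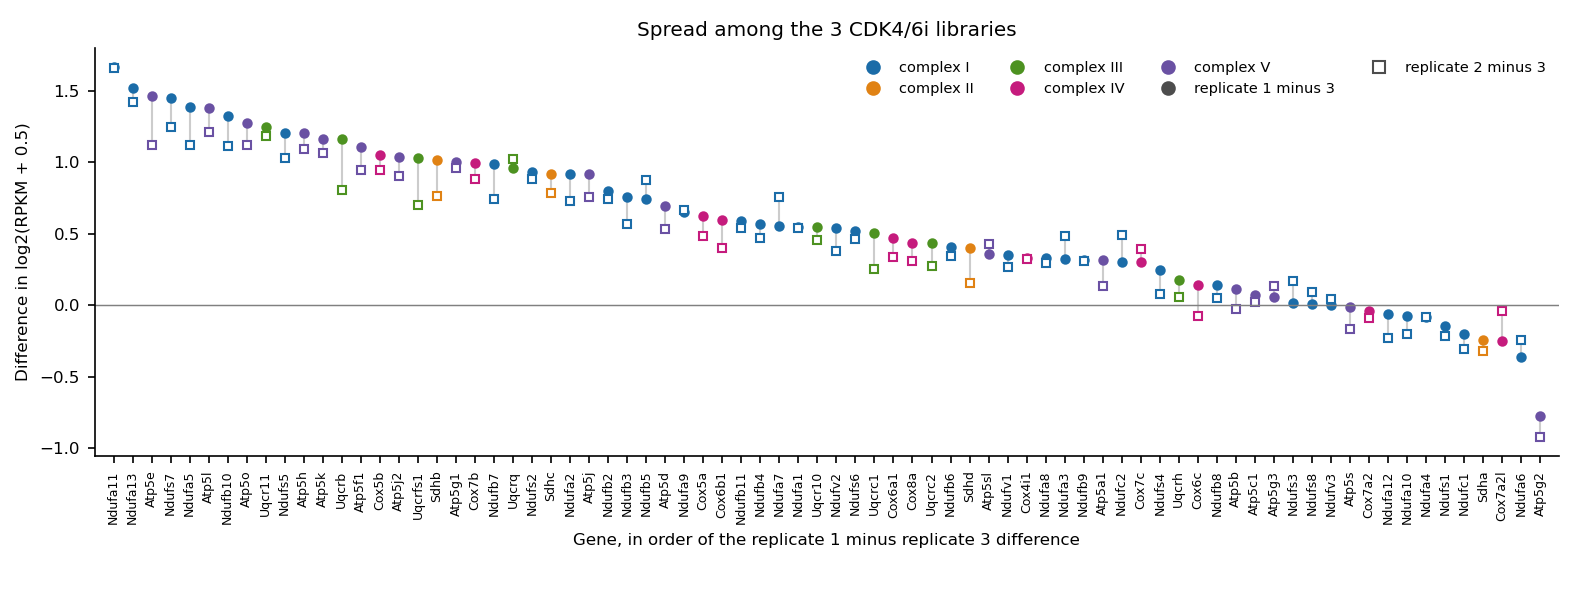
Difference in log2(RPKM + 0.5) (vertical axis) of CDK4/6i replicate 1 minus replicate 3 (filled circles) and replicate 2 minus replicate 3 (open squares) for each common subunit, ordered by the first difference and coloured by complex. Of 76 genes, 65 circles lie above 0, with a median of 0.54.

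Muscle reads moved with this split: they were 10.1% and 9.02% in CDK4/6i replicates 1 and 2 and 0.00209% in replicate 3. The combination group was split likewise, since replicate 1 (10.3% muscle reads) was above replicate 2 (0.153%) for 65 of 76 common subunits, with a median of 0.38. All 9 listed exocrine pancreas genes and all 6 macrophage genes ran the other way in both groups. Prss2 had 0.272, 0.195 and 102 RPKM in the CDK4/6i libraries, and 0.0415 and 230 RPKM in combination replicates 1 and 2. Without the 3 libraries over 5% muscle reads, an alternative added after the shares were seen, 73 members were below 0 in CDK4/6i against PBS, with a median of -0.33, and the only CDK4/6i library left was replicate 3. Without CDK4/6i replicate 3, the median was 0.25 and 17 members were below 0. With the muscle list as a covariate, the median of the members minus that of all genes was 0.27 in CDK4/6i against PBS, as it was without the covariate. The median log2 level of the muscle genes ran from 0.07 to 10.3 with CDK4/6i and from 6.34 to 7.83 with PBS. Since the CDK4/6i levels lay on both sides of the PBS levels, the covariate could move this comparison only a little. The parts of muscle, pancreas and macrophages in it were not tested.

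With PD1 antibody alone, members of all 5 complexes lay mostly below PBS. Of 82 members, 80 had a log2 fold change below 0 (68.7% of all genes) and 2 above 0 (31.3%), with a median of -0.45, against -0.17 over all genes. In 69 members both antibody libraries were below both PBS libraries (34.8% of all genes), and in 0 members were they above (8.78%). An unadjusted p under 0.05 was reached by 13 lower members (7.24% of all genes) and 0 higher ones (1.4%). The 69 were 30 of 37 in complex I, 4 of 4 in complex II, 7 of 8 in complex III, 13 of 16 in complex IV and 15 of 17 in complex V. Over the 8449 genes with a mean of at least 5 RPKM, groups were apart in this direction for 44.7%, and for 84.2% of the 76 members at that level. The medians per complex were -0.45 in I, -0.49 in II, -0.58 in III, -0.43 in IV and -0.38 in V.

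Ndufv1, the complex I subunit that binds NADH (chr19:4007497-4012806, minus strand), had 15.5 and 16.1 RPKM in PD1 antibody tumours, against 28.6 and 25.3 RPKM in PBS tumours. Its log2 fold change was -0.75 ± 0.18 (SE), with an unadjusted p of 0.00289 and an adjusted p of 0.416 by limma, the lowest of the 82. Both PD1 antibody values were the lowest of all 10 libraries. Cox8a had 34.7 and 34.6 RPKM in PD1 antibody tumours, against 89.0 and 50.3 RPKM in PBS tumours (log2 fold change -0.94 ± 0.27 SE, adjusted p 0.492 by limma). Cox7a2, the common partner of Cox7a1, had 6.92 and 8.67 RPKM, against 11.9 and 11.5 RPKM (log2 fold change -0.56 ± 0.17 SE, adjusted p 0.505 by limma). In each of these genes the PD1 antibody libraries were below the PBS libraries without overlap, and Cox8a was highest of all 10 libraries in PBS replicate 1. The members not below 0 were Ndufc1, a small complex I subunit, with 7.22 and 8.32 RPKM against 4.15 and 9.64 RPKM, and Cox5a, with 4.198 and 4.09 RPKM against 3.48 and 4.87 RPKM; both groups overlapped.

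**Figure D4:**
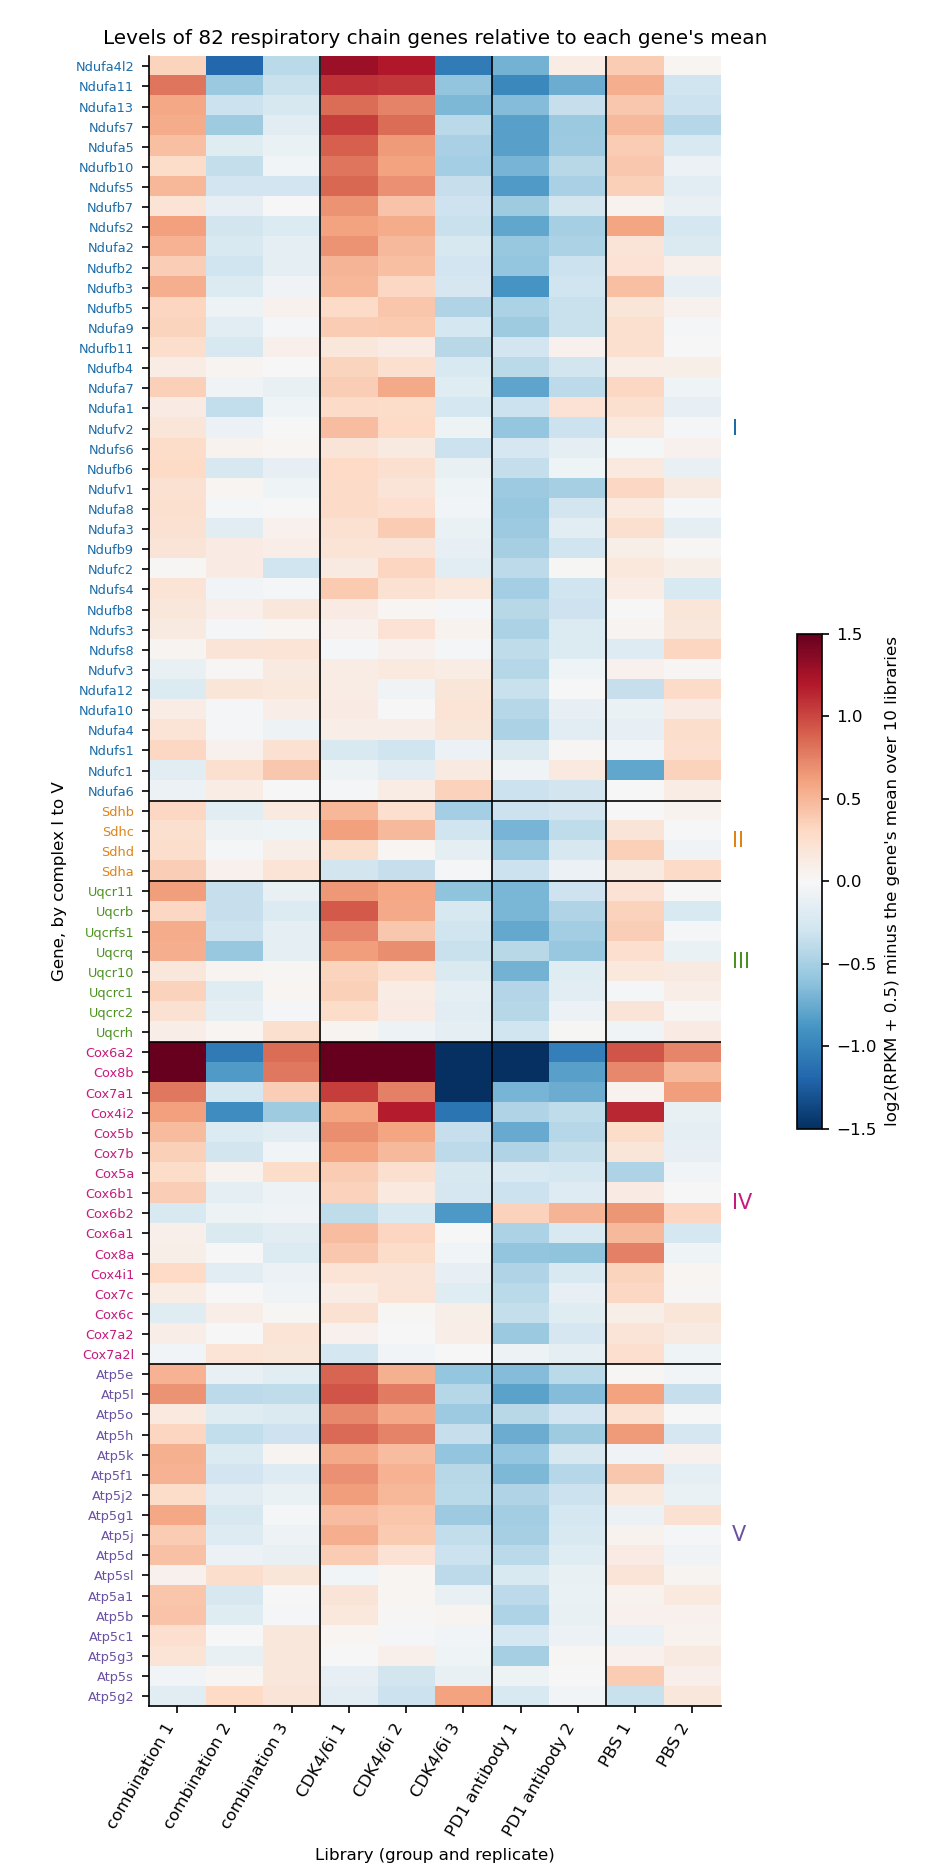
Level of each of the 82 genes (rows, complexes I to V) in each library (columns, by treatment), as log2(RPKM + 0.5) minus the gene's mean over the 10 libraries, with values beyond the ends of the colour scale drawn at its ends. PD1 antibody replicate 1 holds the lowest value of 57 genes and CDK4/6i replicate 1 the highest of 40.

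Subunits of different function had similar values in this comparison. The 7 core subunits of complex I, which include the carriers of its cofactors, had a median of -0.51 (6 without overlap), and its 29 accessory subunits had -0.43 (24 without overlap). In complex V, the F1 part had -0.34 and the peripheral stalk and membrane subunits -0.46. Related lists pointed the same way: 77 of 78 genes of the mitochondrial ribosome (median -0.42), 17 of 17 of the citric acid cycle (-0.38), 18 of 19 complex IV assembly factors (-0.29), and 10 of 13 subunits encoded in mitochondrial DNA (-0.62) were below 0, against 68.7% of all genes. Of the 13 regulators of mitochondrial biogenesis tested, 10 were below 0. This share was near the 68.7% of all genes, as was that of the subunits encoded in mitochondrial DNA. Among the 10 regulators were Esrra, an estrogen-related receptor (log2 fold change -0.71), and Tfam, the packaging factor of mitochondrial DNA (-0.38). Tfb1m, a methyltransferase of mitochondrial ribosomal RNA, had 0.51. The list of 16 hypoxia and glycolysis genes also took fewer reads with PD1 antibody, 0.212% to 0.251%, against 0.312% to 0.326% with PBS. No gene of these lists passed the test.

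Other tissues moved with the same comparison. All 9 pancreas genes were higher in PD1 antibody tumours, with a median log2 fold change of 10.92, all 12 muscle genes lower (median -3.98), all 6 T cell genes higher (1.22) and all 6 macrophage genes higher (0.53). The reads of the 12 muscle genes were alike in PD1 antibody replicate 2 (0.569%) and PBS replicate 2 (0.546%). The common subunits took 0.564% of reads in the former and 0.674% in the latter. A list of 6 slow skeletal muscle genes was not alike in this pair. Myh7 had 0.456 against 43.8 RPKM and Tnnc1 1.46 against 23.4 RPKM. Of the 6, only Myl3 was higher in the antibody library, with 103 against 11.1 RPKM. These libraries still differed in other tissues, with 163 against 1395 RPKM of the liver gene Alb and 1963 against 0.354 RPKM of the pancreas gene Prss2. With muscle entered as a covariate, the members' median log2 fold change was -0.276, and 77 members were below 0. The median of the members minus that of all genes was then -0.03, while the same difference was -0.28 without the covariate. With the values rescaled by median ratios, 55 members were below PBS without overlap (20.4% of all genes) and the median was -0.27. The part of pancreas tissue in these values was not tested.

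The combination against PD1 antibody alone shares the antibody libraries with that comparison, so its values are not independent of it. Here 79 members were above 0 (67% of all genes) and 3 below (33%), with a median of 0.42, against 0.12 over all genes. In 61 every combination library was above both PD1 antibody libraries (21.5% of all genes), among them 29 of 37 in complex I, 4 of 4 in complex II, 4 of 8 in complex III, 12 of 16 in complex IV and 12 of 17 in complex V. An unadjusted p under 0.05 was reached by 13 higher members (4.02% of all genes) and 1 lower one (1.53%). Ndufb8, a membrane-arm subunit of complex I, had 39.1, 36.6 and 39.1 RPKM in combination tumours, against 25.9 and 27.8 RPKM in PD1 antibody tumours (log2 fold change 0.50 ± 0.13 SE, unadjusted p 0.00522, adjusted p 0.763 by limma). Ndufb9 had 204, 196 and 192 RPKM, against 126 and 145 RPKM (log2 fold change 0.54 ± 0.15 SE, adjusted p 0.763 by limma). Ndufv1 had 26.9, 23.3 and 21.9 RPKM, against 15.5 and 16.1 RPKM (log2 fold change 0.59 ± 0.17 SE, adjusted p 0.763 by limma). In all 3 genes the groups did not overlap. Cox6b2 was the 1 member below without overlap (5.1% of all genes), with 1.40, 1.61 and 1.64 RPKM against 2.32 and 2.66 RPKM. Of the related lists, 78 of 78 mitochondrial ribosome genes (median 0.38) and 17 of 17 citric acid cycle genes (0.38) were above 0. With median-ratio scaling, 34 members were above without overlap (14.9% of all genes). With muscle as a covariate, the members' median was 0.23, and 8 members were below 0. That median was 0.03 above the median of all genes, while without the covariate it was 0.30 above.

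The combination against CDK4/6i alone gave 26 members above 0 (68.6% of all genes) and 56 below (31.3%), with a median of -0.09, against 0.15 over all genes. Groups did not overlap for 5 members, all higher in the combination (7.84% of all genes; 0 lower, 3.01%): Sdha, Ndufs1, Cox6b2, Atp5s and Atp5sl. With median-ratio scaling 0 members were higher without overlap (6.09% of all genes) and 4 lower (7.09%), and with quantile normalization 3 were higher (4.69%) and 0 lower (7.7%). Of the 5, 2 had an unadjusted p under 0.05 (6.75% of all genes were higher and 1.29% lower at that p). Sdha had 77.3, 62.9 and 69.0 RPKM in combination tumours, against 49.6, 47.0 and 58.9 RPKM in CDK4/6i tumours (log2 fold change 0.43 ± 0.15 SE, adjusted p 0.618 by limma). Ndufs1 had 9.51, 7.98 and 8.96 RPKM, against 6.39, 6.05 and 7.13 RPKM (log2 fold change 0.41 ± 0.15 SE, adjusted p 0.618 by limma). Each group of 3 held both muscle-rich and muscle-poor libraries, and the Sdha and Ndufs1 values of CDK4/6i replicate 3, with almost no muscle reads, were the highest of their group. Among the lower members, Uqcrb had 324, 206 and 227 RPKM, against 497, 389 and 222 RPKM (log2 fold change -0.50), and Atp5h had 272, 168 and 176 RPKM, against 393, 365 and 171 RPKM (log2 fold change -0.53). In these genes CDK4/6i replicate 3 lay within the combination range, so the groups overlapped. Without the 3 libraries over 5% muscle reads, 17 members were below 0 and the median was 0.15, while without CDK4/6i replicate 3 they were 67 and -0.27.

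**Figure D5:**
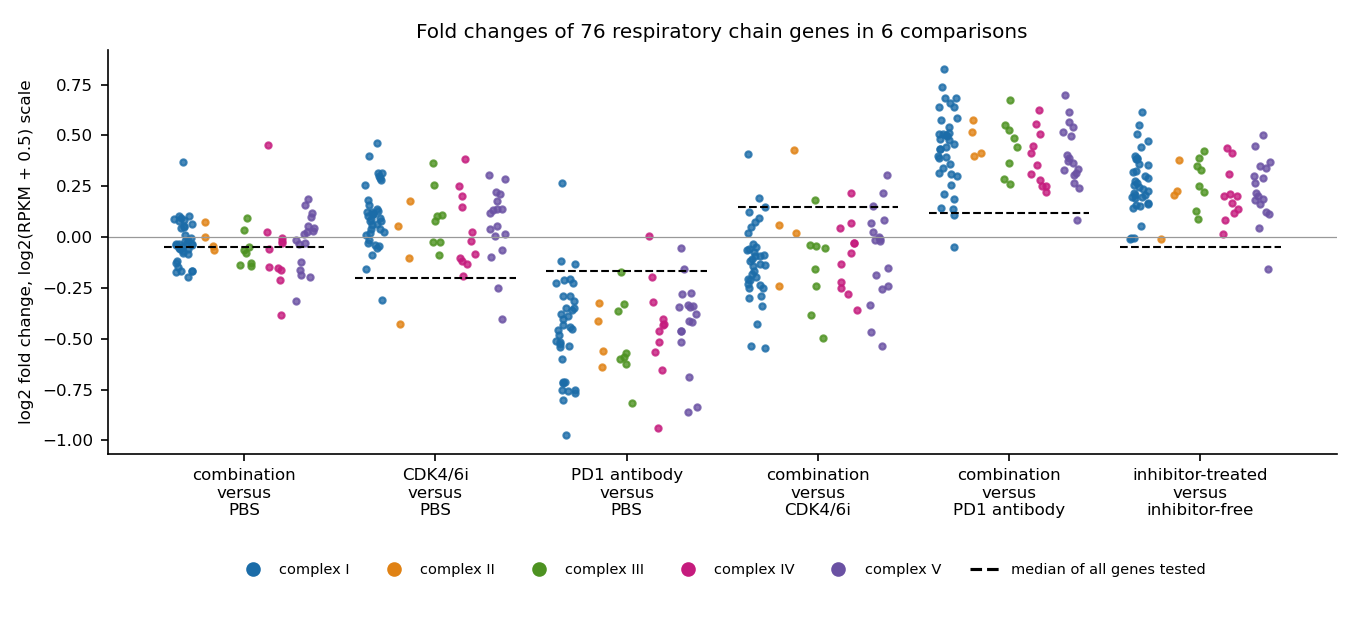
Log2 fold changes (log2(RPKM + 0.5) scale, vertical axis) of the 76 common subunits in 6 comparisons, coloured by complex, with a dashed line at the median of all genes tested. The members lie mostly below 0 for PD1 antibody versus PBS (median -0.44) and mostly above 0 for combination versus PD1 antibody (median 0.42), and around 0 for combination versus PBS (median -0.03).

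Averaged over both backgrounds, inhibitor-treated against inhibitor-free tumours gave 75 members above 0 (41.5% of all genes) and 7 below (58.5%), with a median of 0.23, against -0.05 over all genes. An unadjusted p under 0.05 was reached by 6 higher members (1.64% of all genes) and 1 lower one (3.27%). No member was higher in every inhibitor-treated library than in every inhibitor-free one (0.16% of all genes), and Cox6b2 alone was lower in that way (0.444% of all genes), with a log2 fold change of -0.77 ± 0.16 (SE), an unadjusted p of 0.00135 and an adjusted p of 0.693 by limma. Ndufs4, an accessory subunit that complex I needs for stable assembly, had the lowest p of those above 0: 84.9, 71.2 and 72.5 RPKM in the combination libraries and 96.8, 86.1 and 81.6 RPKM with CDK4/6i, against 51.5 and 59.3 RPKM with PD1 antibody and 79.6 and 62.5 RPKM with PBS (log2 fold change 0.39 ± 0.12 SE, adjusted p 0.820 by limma). The highest inhibitor-free library of Ndufs4, PBS replicate 1, lay among the inhibitor-treated ones. Without the 3 libraries over 5% muscle reads, 44 members were below 0 in the averaged comparison, with a median of -0.02. The comparisons averaged here differed. The members' median was 0.07 in CDK4/6i versus PBS, and between -0.05 and 0.25 with single samples left out. In combination versus PD1 antibody it was 0.42.

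The difference between the inhibitor's effect with antibody and its effect without was tested as an interaction: 79 members were above 0 (83.3% of all genes) and 3 below (16.7%), and an unadjusted p under 0.05 was reached by 7 members above (4.97% of all genes) and 0 below (0.656%). The members' median was 0.36, only 0.035 above that of all genes, and 0.004 with median-ratio scaling. The members below 0 numbered 40 with median-ratio scaling, 25 with quantile normalization, 22 with muscle level as a covariate and 22 without CDK4/6i replicate 3. Its value for Sdha was 0.84 ± 0.24 (SE) on the log2 scale, with an unadjusted p of 0.00678 and an adjusted p of 0.777 by limma, the lowest p of the 82.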

How the data were processed

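The deposited table gives RPKM per gene and library, with gene positions and lengths, computed by the authors. Build GRCm38 (mm10) is named per the submitters' processing notes; the aligner, counter, annotation and strand setting were not given in the sources used here. Per the labels' protocols 2 library kits are named for stranded mRNA. RPKM times length and library total gave whole reads for 100% of values in each library (tolerance 1e-06), so library totals are those in the text. Columns headed Abema (CDK4/6i) and Combi (combination) were joined to the sample titles by stem and number, since their spelling differs slightly. The 82 members and all lists were chosen with earlier results of these data known. Combination samples were grouped by title, since the treatment labels of replicates 2 and 3 name the antibody PD2 and PD3. RPKM values were tested as log2(RPKM + 0.5) with limma 3.58.1 (R 4.3.3) on 4 group means over 10 samples, with a mean-variance trend, robust moderation and 6 residual degrees of freedom. Genes needed 0.5 RPKM in 2 samples, and Benjamini-Hochberg adjustment ran over all 19368. The fit was tested on simulated data with the same spread for all genes and no tissue differences between libraries. That simulation does not show how the fit handles the spread in these tumours. Genes named in full were fixed by rule: tissue-type isoforms with partners, the highest member per complex, the highest and lowest fold changes, and the 3 lowest p per direction. Alternatives were pseudocounts of 0.1 and 1, other filters, median-ratio and quantile scaling, no trend, a fit of the compared groups alone, a block for the replicate number, voom on the recovered reads (at least 10 in 2 samples, 21143 genes, 0 called), muscle level as a covariate, libraries over 1% or 5% muscle reads left out, and each sample left out. The 5% limit and the interaction test were added after the data were seen. Exons of 25 members overlap those of another gene.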

Additional observations from a re-analysis of the deposited data

How the results depend on the processing

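In every alternative run, 0 of the 82 members passed an adjusted p of 0.05 in each of the comparisons, as with limma on the deposited values. At an unadjusted p under 0.05, limma gave 686 genes for combination versus PBS, 1036 for CDK4/6i versus PBS, 1675 for PD1 antibody versus PBS, 1556 for combination versus CDK4/6i and 1075 for combination versus PD1 antibody, and voom on the recovered reads gave 642, 1102, 1574, 1633 and 1079. Over all genes, some alternatives called genes. Counts are given only for settings that kept more than 1 library in every group. Leaving out libraries over 1% muscle reads did not, since it kept only PBS replicate 2 and CDK4/6i replicate 3 of their groups. The highest count was 8 for CDK4/6i versus PBS (no filter), 1 for combination versus CDK4/6i (without CDK4/6i replicate 3) and 8 for the averaged inhibitor effect (muscle covariate). It was 65 for PD1 antibody versus PBS (only the groups compared), 7 for combination versus PBS and 15 for combination versus PD1 antibody (both no filter). No member was among them.

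The check of replicate numbers showed no pairing: 6 of 13 same-numbered pairs had correlated deviations over 0.1, and so did 10 of 24 with other numbers. Deviations mirror each other within the PD1 antibody group and within the PBS group. These correlations are therefore not independent, and the check cannot show that samples were unpaired. With the replicate number as a block 0 members were called, and the log2 fold change turned to 0.033 for Ndufa1 and 0.26 for Ndufa4l2 in combination versus PD1 antibody and to 0.32 for Cox4i2 in the averaged inhibitor effect; for the last it was 0.050 with quantile scaling.

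Without libraries over 1% muscle reads, the log2 fold change turned to -0.20 for Cox5a and -0.20 for Ndufb7 in CDK4/6i versus PBS, to -0.30 for Ndufc1 and -0.21 for Cox5a in PD1 antibody versus PBS, to -0.027 for Ndufc1 in combination versus PBS, and to 0.0091 for Atp5h in combination versus CDK4/6i. Without those over 5%, it was -0.28 for Ndufb7 and 0.0091 for Atp5h in the same comparisons. With voom, Cox5a had -0.0091 in PD1 antibody versus PBS.

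Leaving out each sample in turn moved the log2 fold change through 0 for 7 results. In PD1 antibody versus PBS it ran between -0.30 and 0.83 for Ndufc1 and between -0.21 and 0.22 for Cox5a. In combination versus PBS it ran between -0.19 and 0.93 for Ndufc1 and between -0.79 and 0.025 for Cox8a, the upper value being without PBS replicate 1. In combination versus PD1 antibody it ran between -0.32 and 0.22 for Ndufa1 and between -0.52 and 0.29 for Ndufa4l2, and in the averaged inhibitor effect between -0.39 and 0.26 for Cox4i2. Other members were not followed gene by gene. The members' median also moved through 0 in CDK4/6i versus PBS (between -0.052 and 0.25) and in combination versus PBS (between -0.17 and 0.064). The cause was not tested.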
